A study of Mus musculus with 6 samples.

Results

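Glutathione S-transferases were followed as 10 genes picked by symbol from the 24062 rows of each count table: Gstm1, Gstm2 and Gstm5 of the mu class, Gsta4 of the alpha class, Gstp1 of the pi class, Gstt1 and Gstt2 of the theta class, Gsto1 of the omega class, and the membrane enzymes Mgst1 and Mgst3. All 10 had a row, and 9 passed the filter on low counts and entered the test, Gsta4 being the exception. The genes were chosen with their difference between the stiffnesses known, so their values are a description. No p-value is printed for them, and the 1 call among them is given only beside the share over all genes. The samples were bone marrow cultures of C57BL/6J mice grown with GM-CSF at 20 ng/ml, a cytokine that drives marrow precursors to dendritic cells and macrophages, and fed again on days 3, 6 and 10. There were 3 libraries of polyA RNA at 50 kPa, titled high tension, and 3 at 2 kPa, titled low tension. All were titled dendritic cells. The comparison asks how substrate stiffness alters gene expression in such cultures. No sort is named in the labels, nor whether the replicates came from separate animals or cultures, so each p-value reflects the scatter among these libraries alone, and that scatter may be technical.

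Glutathione S-transferases join the thiol of glutathione to electrophilic compounds, which makes them more soluble and marks them for export. The cytosolic enzymes work as dimers and are grouped in classes by sequence, and the membrane-bound MAPEG enzymes form a separate family that also includes makers of leukotrienes and prostaglandins. Several transferase genes are known targets of the oxidative stress factor NRF2 and of the aryl hydrocarbon receptor.

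Libraries held 33.8 M to 36.3 M counts. The 50 kPa replicates 1 and 2 were far more alike than any other pair within a group, as the chi-square of their counts divided by its degrees of freedom was 6.71, and 126 to 233 for the remaining pairs. On the first principal component of log2 CPM, which held 67.9% of the variance, 50 kPa replicate 3 (-8.06) and 2 kPa replicate 1 (13.1) lay between the other libraries of their groups, at -54.5 and -59.5 at 50 kPa and at 57.4 and 51.5 at 2 kPa. Levels are counts per 1 M counts of the TMM-scaled library (CPM), and differences are log2 fold changes of 50 kPa over 2 kPa with their standard error from edgeR's quasi-likelihood fit over 13155 genes. In bulk samples such as these, fewer cells of a type and less RNA per cell cannot be told apart.

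Gstm2 stood 2.87-fold higher at 50 kPa, Gstm5 1.91-fold higher and Gstm1 1.22-fold higher, while Gsto1 was 1.36-fold lower. For these 4 genes the 50 kPa libraries did not overlap the 2 kPa libraries, and for the other 5 tested genes they did. Of the 9 tested genes, 1 was called at an edgeR adjusted p under 0.05, Gstm2, beside 3.45% of all tested genes (1.47% higher and 1.98% lower at 50 kPa). Over all genes the calls were 194 higher and 260 lower, and 77 higher and 257 lower with total counts as the scaling. Groups that did not overlap were found in 34.1% of all tested genes (17.2% higher and 16.9% lower). Since the genes were chosen on this contrast, nothing is read from these counts. The summed level of the 10 genes was 549, 507 and 545 CPM at 50 kPa, and 482, 513 and 443 CPM at 2 kPa, so that the groups overlapped. The median log2 fold change of the 9 tested genes was 0.24, and that of all tested genes was -0.028.

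**Figure D1:**
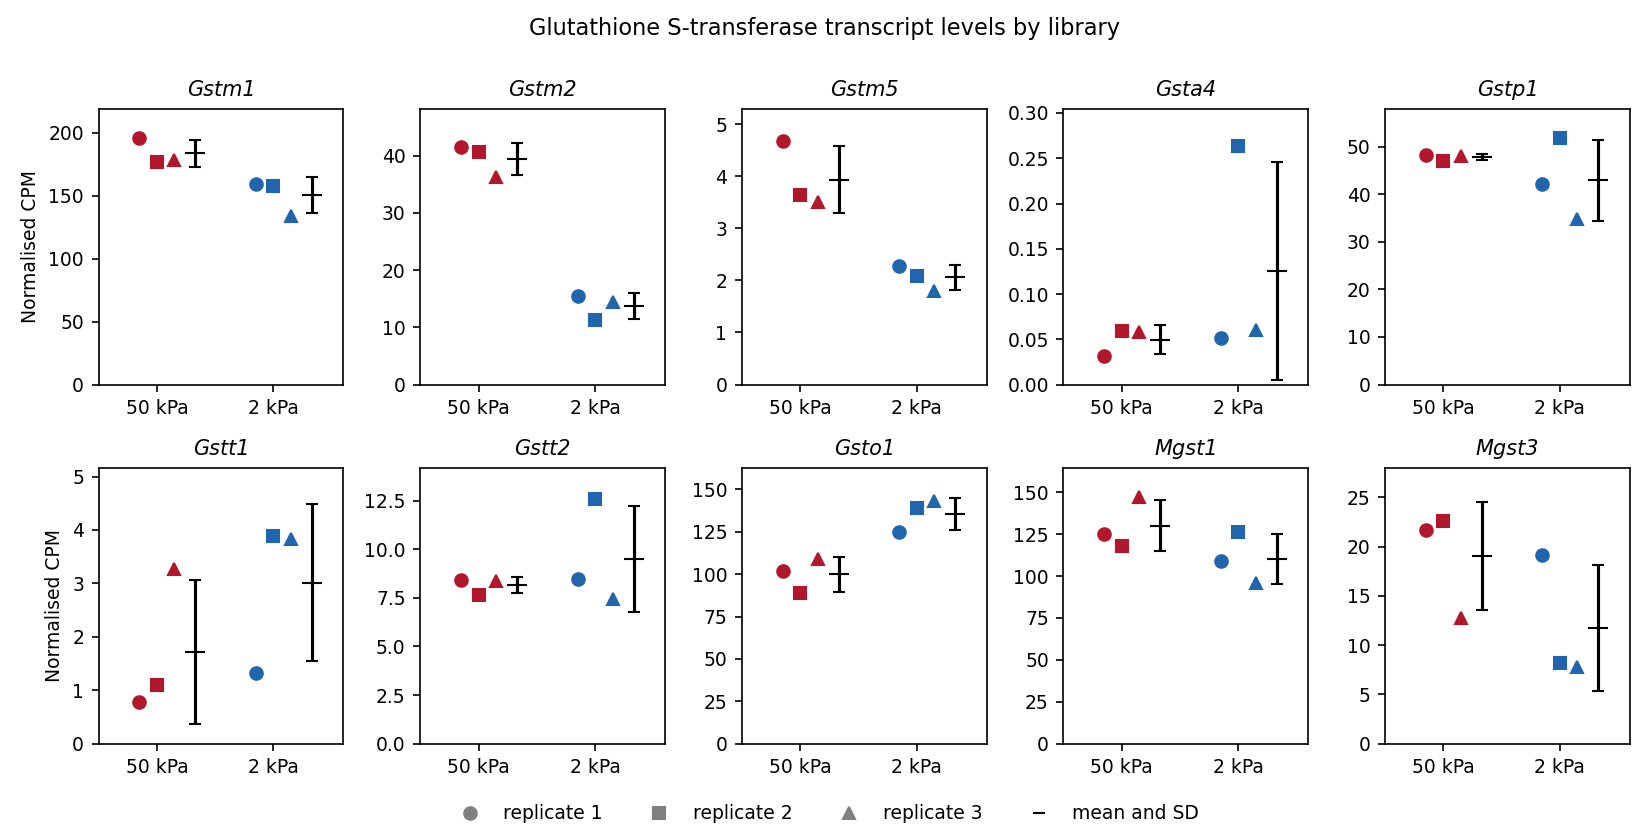
Normalised CPM of the 10 glutathione S-transferase genes in each library, at 50 kPa (red) and 2 kPa (blue), with 1 symbol per replicate and bars for the mean and SD of n = 3. The groups stand apart for Gstm1, Gstm2, Gstm5 and Gsto1, and each panel has its own axis from 0.

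The mu class genes lie side by side on chromosome 3. In GRCm38 with the GENCODE vM21 annotation the cluster holds 7 genes over 149074 bases, in the order Gstm5, Gstm7, Gstm6, Gstm3, Gstm2, Gstm1 and Gstm4. Gstm5 is on the plus strand and the others are on the minus strand. Promoter windows are printed here for the 4 transferases whose groups did not overlap, from 250 bases before to 50 bases after the start site, as RefSeq gives them for GRCm38.p6. Capitals mark matches to the antioxidant response motif TGACNNNGC, the xenobiotic response motif GCGTG or the AP-1 motif TGANTCA on either strand. For Gstm1, which has several entries, the more downstream start is shown. Each line names the gene, its window and its strand before the sequence.
Gstm2 chr3:107986371-107986670 minus: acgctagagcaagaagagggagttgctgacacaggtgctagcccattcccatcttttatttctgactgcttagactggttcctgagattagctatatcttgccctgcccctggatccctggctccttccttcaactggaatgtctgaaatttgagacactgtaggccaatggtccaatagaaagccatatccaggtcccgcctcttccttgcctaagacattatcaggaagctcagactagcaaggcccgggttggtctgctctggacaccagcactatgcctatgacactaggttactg
Gstm5 chr3:107895604-107895903 plus: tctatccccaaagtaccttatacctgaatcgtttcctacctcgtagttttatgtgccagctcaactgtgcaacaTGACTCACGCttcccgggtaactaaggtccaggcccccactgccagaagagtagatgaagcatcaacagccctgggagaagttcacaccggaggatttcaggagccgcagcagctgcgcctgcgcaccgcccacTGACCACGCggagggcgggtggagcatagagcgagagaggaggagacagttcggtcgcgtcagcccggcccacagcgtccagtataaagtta
Gstm1 chr3:108017769-108018068 minus: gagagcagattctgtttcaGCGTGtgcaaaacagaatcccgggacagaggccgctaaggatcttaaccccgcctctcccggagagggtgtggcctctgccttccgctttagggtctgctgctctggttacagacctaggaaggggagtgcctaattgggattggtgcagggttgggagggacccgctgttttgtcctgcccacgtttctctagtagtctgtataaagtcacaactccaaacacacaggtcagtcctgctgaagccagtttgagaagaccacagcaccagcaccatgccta
Gsto1 chr19:47854723-47855022 plus: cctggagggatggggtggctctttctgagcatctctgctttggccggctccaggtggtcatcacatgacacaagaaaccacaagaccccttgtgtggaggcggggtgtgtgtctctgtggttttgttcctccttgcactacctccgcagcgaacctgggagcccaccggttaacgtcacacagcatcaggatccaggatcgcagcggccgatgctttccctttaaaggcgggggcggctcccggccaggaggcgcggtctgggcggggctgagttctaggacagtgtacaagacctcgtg
The Gstm5 window held all 3 motifs, with an antioxidant response match at -42, an AP-1 match at -176 and xenobiotic response matches at -38 and -171 from the start site, the -38 match overlapping the antioxidant response match and the -171 match the AP-1 match. The Gstm1 window held 1 xenobiotic response match at -231, and the Gstm2 and Gsto1 windows held none of the 3. Counted from the more upstream Gstm1 start, the same match is at -76. Of 32851 promoter windows of this length, 12.4% held the antioxidant response motif, 32.4% the xenobiotic response motif and 7.81% the AP-1 motif. These are matches of letters in a short window, with no measurement of binding. Of the remaining genes among the 10, the Mgst1 window that starts furthest upstream held an antioxidant response match at -56, the Gstp1 window an AP-1 match at -74 and a xenobiotic response match at -13, and the Mgst3 window a xenobiotic response match at -22. The more downstream Mgst1 window held none of the 3 motifs. Of the 10 genes, 8 had an entry, all but Gsta4 and Gstt2.

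Gstm2 (chromosome 3, 107981702 to 107986453, minus strand) encodes a mu class enzyme whose human counterpart conjugates quinones of dopamine. Its levels were 41.5, 40.6 and 36.2 CPM at 50 kPa, and 15.5, 11.2 and 14.4 CPM at 2 kPa. The lowest 50 kPa library was above the highest 2 kPa library by a wide margin. The means were 39.4 ± 2.86 CPM at 50 kPa and 13.7 ± 2.23 CPM at 2 kPa (SD, n = 3 each), a log2 fold change of 1.52 ± 0.14. Over 15 other settings it lay between 1.39 and 1.62. Its call was lost without 50 kPa replicate 1 or replicate 2, without 2 kPa replicate 2 or replicate 3, and with 50 kPa replicates 1 and 2 summed, settings in which the log2 fold change was 1.39 to 1.56. Of the 50-base windows of its transcripts, 5.65% are found in transcripts of other genes.

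Gstm5 (107895821 to 107898686, plus strand), a mu class gene at the far end of the cluster, was a low-level transcript. It had 4.67, 3.64 and 3.50 CPM at 50 kPa, against 2.28, 2.09 and 1.80 CPM at 2 kPa. All 50 kPa libraries were above all 2 kPa libraries, and the counts behind these values were 121 to 150 at 50 kPa and 60 to 88 at 2 kPa. The log2 fold change was 0.93 ± 0.20, and over the other settings it lay between 0.79 and 1.02. Its exons share 178 bases with 4933431E20Rik on the opposite strand, which stood at 4.73, 5.19 and 3.67 CPM at 50 kPa and at 1.37, 0.888 and 0.961 CPM at 2 kPa. Whether the counting used strand is not stated in the labels, so reads of the 2 genes cannot be told apart in that stretch.

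Gstm1 (108012255 to 108017973, minus strand), an abundant mu class enzyme of mouse liver, had the highest level per length of the 10 genes at both stiffnesses. It stood at 196, 177 and 178 CPM at 50 kPa, and at 159, 158 and 134 CPM at 2 kPa. The groups did not overlap, but the gap between the nearest libraries was small beside the level. The log2 fold change was 0.29 ± 0.11, and it was 0.15 when libraries were scaled by total counts alone, a scaling that moved the median of all genes to -0.16. Of its 50-base windows, 18.9% are found in transcripts of other genes, most of them in Gstm2-ps1 (14.1%), for which no row was used here.

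The ratio of Gstm1 to Gstm2 CPM was 4.73, 4.37 and 4.91 at 50 kPa, and 10.2, 14.1 and 9.24 at 2 kPa. The neighbouring genes therefore differed in size of change although both were higher at 50 kPa. Gstm4, the next gene after Gstm1 and not among the 10, was tested on its own account. It had 25.9, 22.9 and 19.8 CPM at 50 kPa, against 18.0, 13.5 and 12.6 CPM at 2 kPa. Its log2 fold change of 0.64 ± 0.18 did not pass the test (edgeR adjusted p = 0.0897; 0.0159 to 0.301 over the other settings), although every 50 kPa library was above every 2 kPa library. The remaining mu genes Gstm3, Gstm6 and Gstm7 had at most 12 counts in a library and were not tested. The 7 mu genes together gave 269, 245 and 237 CPM at 50 kPa, and 195, 185 and 163 CPM at 2 kPa.

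Gsto1 (chromosome 19, 47854970 to 47864790, plus strand) encodes an omega class enzyme, which removes glutathione from proteins and reduces dehydroascorbate, and which takes part in NLRP3 inflammasome activation in mouse macrophages. It had 102, 88.7 and 109 CPM at 50 kPa, against 125, 139 and 143 CPM at 2 kPa. All 50 kPa libraries were below all 2 kPa libraries, and it was the 1 gene of the 10 that was lower at 50 kPa without overlap. The means were 99.8 ± 10.2 CPM at 50 kPa and 136 ± 9.46 CPM at 2 kPa (SD, n = 3 each), a log2 fold change of -0.45 ± 0.11. Over the other settings it lay between -0.58 and -0.35. Its paralogue Gsto2, a dehydroascorbate reductase gene that starts 743 bases beyond the end of Gsto1 on the same strand, had the opposite sign. Gsto2 stood at 2.12, 1.88 and 1.56 CPM at 50 kPa, and at 0.958, 0.456 and 0.631 CPM at 2 kPa, a log2 fold change of 1.44 ± 0.32 (edgeR adjusted p = 0.0647; 0.00256 to 0.253 over the other settings). It rested on 54 to 68 counts per library at 50 kPa and 19 to 37 at 2 kPa. The ratio of Gsto1 to Gsto2 was 48.3, 47.1 and 69.5 at 50 kPa, and 131, 305 and 227 at 2 kPa.

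**Figure D2:**
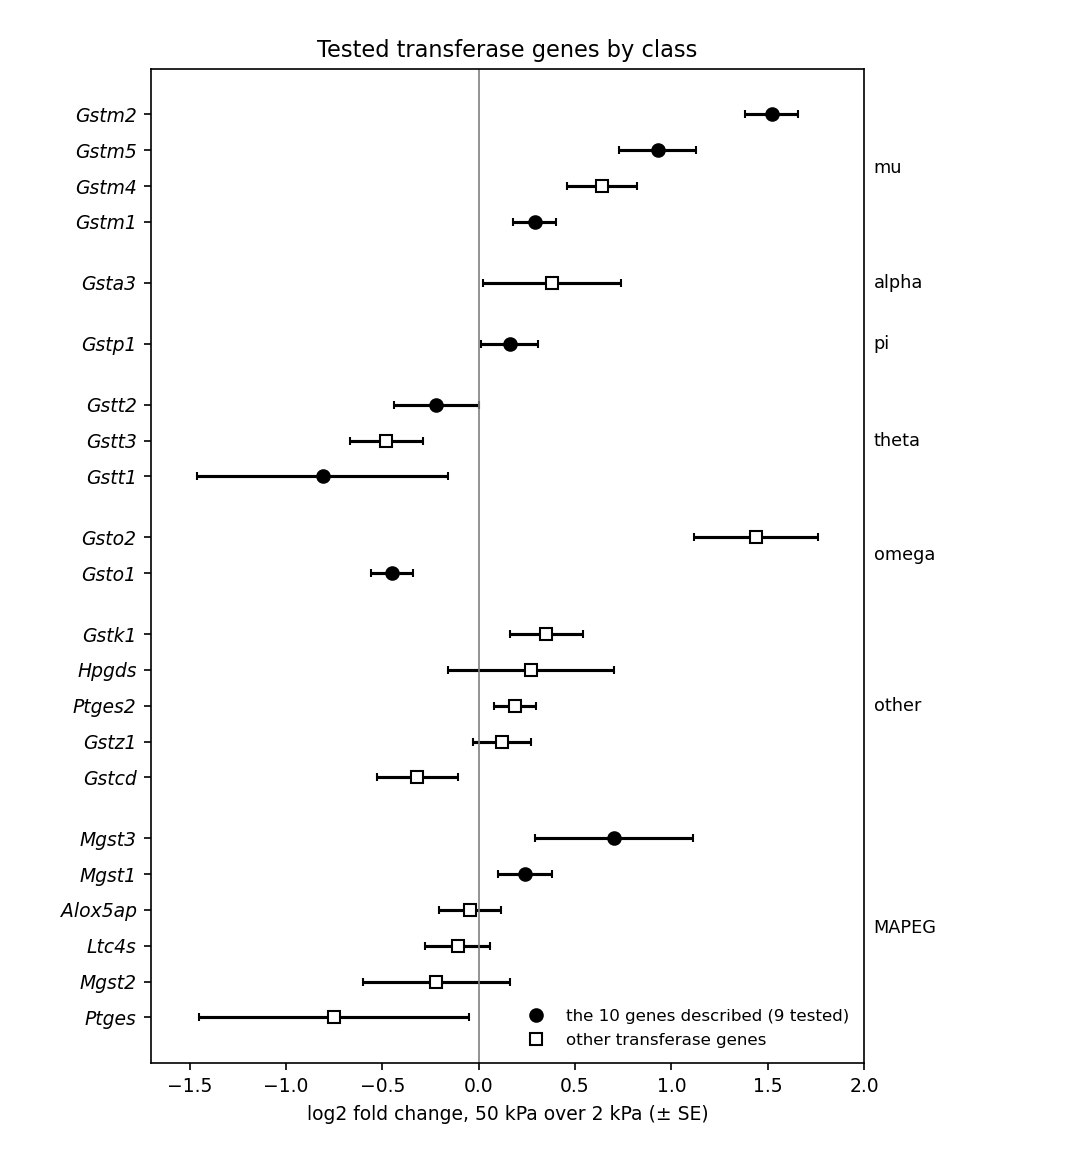
Log2 fold change of 50 kPa over 2 kPa with its standard error for the 22 transferase genes tested, grouped by class, with filled circles for the genes described and open squares for the other genes of the family. Gstm2 stands furthest to the right at 1.52, all 4 tested mu genes lie above 0, and Gsto1 and Gsto2 lie on opposite sides of it.

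Gstp1 (chromosome 19, 4035407 to 4037985, minus strand), the pi class enzyme that also binds and restrains the kinase JNK, was even at 50 kPa and spread at 2 kPa. It had 48.3, 47.0 and 48.1 CPM at 50 kPa, and 42.2, 51.8 and 34.8 CPM at 2 kPa. The 2 kPa libraries enclosed the 50 kPa libraries, and the log2 fold change was 0.16 ± 0.15, turning to -0.00017 with total counts as the scaling. It was 0.026 without 2 kPa replicate 3 and 0.31 without 2 kPa replicate 2. Its transcripts share 33.7% of their 50-base windows with those of other genes, at most with Gstp2, whose row had at most 0.187 CPM in any library. The labels do not state how reads that match both genes were counted.

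The theta class genes lie together on chromosome 10. Gstt1 (75783813 to 75798584, minus strand), which acts on small halogenated compounds, had 0.778, 1.1 and 3.27 CPM at 50 kPa, and 1.32, 3.89 and 3.84 CPM at 2 kPa. The low libraries were 50 kPa replicates 1 and 2 and 2 kPa replicate 1, so the groups overlapped. The log2 fold change was -0.81 ± 0.65, and it was -1.67 without 50 kPa replicate 3 and -0.44 without 50 kPa replicate 1. Gstt2 (75831114 to 75837424, minus strand), a further theta class gene, had 8.40, 7.67 and 8.36 CPM at 50 kPa, and 8.49, 12.6 and 7.42 CPM at 2 kPa. Its values overlapped, and the log2 fold change of -0.22 ± 0.22 turned to 0.032 without 2 kPa replicate 2, the library with the highest value, and was -0.37 without 2 kPa replicate 3. Their neighbour Gstt3 had 7.53, 7.37 and 8.94 CPM at 50 kPa, against 9.32, 13.8 and 10.2 CPM at 2 kPa (log2 fold change -0.48 ± 0.19, edgeR adjusted p = 0.163).

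Gsta4 (chromosome 9, 78182774 to 78209349, plus strand), the alpha class enzyme that clears the lipid peroxidation product 4-hydroxynonenal, was close to undetected. It had 1, 2 and 2 counts in the 50 kPa libraries, and 2, 11 and 2 counts in the 2 kPa libraries. At this depth no difference could be measured, and no fold is given. Of the other alpha genes, Gsta1 had 0 counts in every library. However, 90.5% of its 50-base windows are found in transcripts of other genes, so this count limits its level only loosely. Gsta3 averaged 1.94 ± 0.816 CPM at 50 kPa and 1.49 ± 0.367 CPM at 2 kPa (SD, n = 3 each).

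Mgst1 (chromosome 6, 138140316 to 138156755, plus strand) encodes a transferase of the endoplasmic reticulum and outer mitochondrial membrane that also reduces lipid hydroperoxides. It had 125, 118 and 147 CPM at 50 kPa, and 109, 126 and 96.1 CPM at 2 kPa. The groups overlapped through 2 kPa replicate 2, and the log2 fold change was 0.24 ± 0.14. With 1 library left out it ran from 0.15 without 2 kPa replicate 3 up to 0.34 without 2 kPa replicate 2. It was 0.088 with total counts as the scaling. Mgst3 (chromosome 1, 167371966 to 167393841, minus strand), a membrane enzyme with glutathione peroxidase activity, had 21.7, 22.6 and 12.7 CPM at 50 kPa, and 19.1, 8.20 and 7.81 CPM at 2 kPa. Its high libraries were 50 kPa replicates 1 and 2 and 2 kPa replicate 1, the same libraries in which Gstt1 was low. The log2 fold change of Mgst3 was 0.70 ± 0.41, and it was 1.25 without 2 kPa replicate 1 and 0.48 without 2 kPa replicate 3. Hpgds, the sigma class transferase that makes prostaglandin D2, also had its highest values in these libraries, with 20.8, 21.4 and 13.7 CPM at 50 kPa and 26.4, 11.4 and 8.65 CPM at 2 kPa (log2 fold change 0.27 ± 0.43, edgeR adjusted p = 0.704). Leaving out 2 kPa replicate 1 gave 0.90 for Hpgds, and leaving out 2 kPa replicate 3 gave -0.017.

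Levels of different genes were compared per length, as CPM per kb of exon in the annotation. At 50 kPa the order was Gstm1 (125 ± 7.33 CPM per kb), Mgst1 (64.6 ± 7.45), Gsto1 (49.3 ± 5.02), Gstp1 (30.9 ± 0.480), Gstm2 (23.5 ± 1.70), Mgst3 (17.3 ± 5.02), Gstm5 (3.08 ± 0.498), Gstt2 (1.96 ± 0.0985), Gstt1 (1.12 ± 0.886) and Gsta4 (0.0391 ± 0.0126) (SD, n = 3). Only Gstt2 and Gstt1 overlapped among the neighbours of this order. At 2 kPa Gsto1 (67.2 ± 4.67 CPM per kb) stood next after Gstm1, followed by Mgst1 (54.8 ± 7.46), with overlapping libraries. Gstm2 (8.17 ± 1.33) came after and overlapped Mgst3 (10.7 ± 5.83), Gstt2 overlapped Gstt1, and Gstt1 overlapped Gstm5. Gstm1 made up 39.4 ± 1.40% of the per-length sum of the 10 genes at 50 kPa and 36.8 ± 1.22% at 2 kPa. Gstm2 made up 7.43 ± 0.607% at 50 kPa and 2.98 ± 0.613% at 2 kPa, both as SD over n = 3. Gsto1 made up 15.4%, 14.4% and 16.9% at 50 kPa, and 21.9%, 23.4% and 28.0% at 2 kPa, so that the groups did not overlap.

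**Figure D3:**
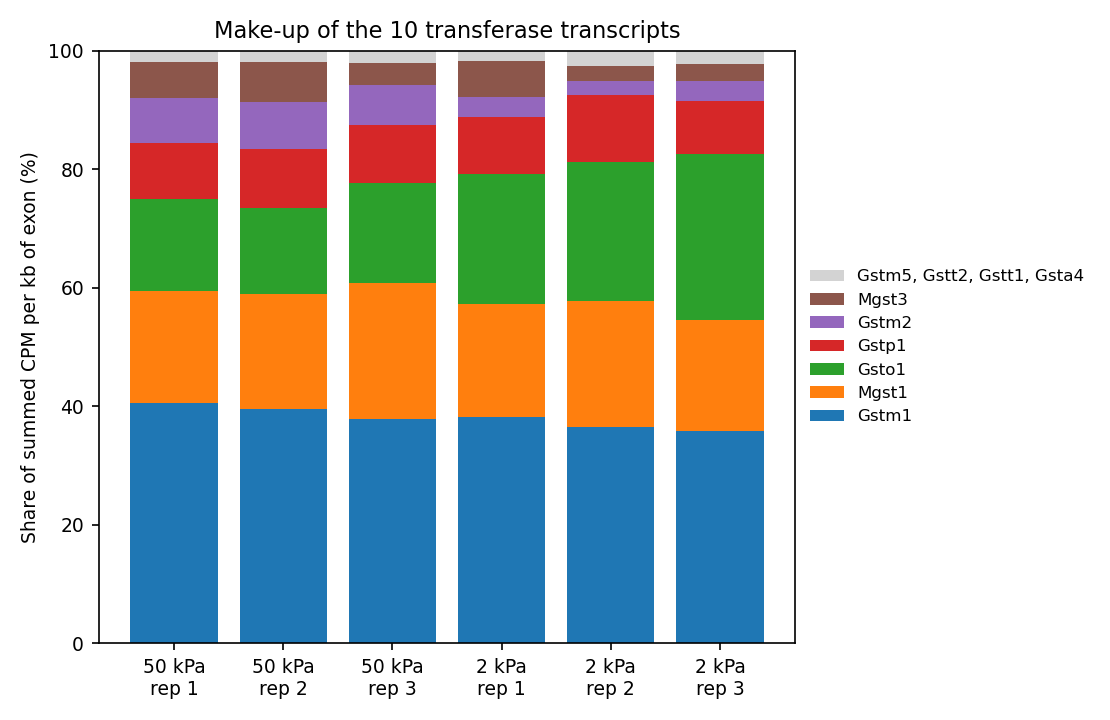
Share of each gene in the summed CPM per kb of exon of the 10 glutathione S-transferases, with 1 bar for each library and percent on the axis. Gsto1 holds 14.4% to 16.9% of the bar at 50 kPa and 21.9% to 28.0% at 2 kPa, and Gstm2 6.77% to 7.96% at 50 kPa and 2.28% to 3.40% at 2 kPa.

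Other genes of the family gave 0 calls by edgeR among 13 tested. At an unadjusted p under 0.05 there were 3, Gsto2, Gstm4 and Gstt3, beside 27.8% of all tested genes. DESeq2 called 2, beside 18% of all genes, and limma-voom 0. Their median log2 fold change was 0.12. The leukotriene genes of the MAPEG family overlapped between the stiffnesses. Alox5ap, which presents arachidonate to 5-lipoxygenase, had 296 to 317 CPM at 50 kPa and 251 to 366 CPM at 2 kPa, and Ltc4s, leukotriene C4 synthase, 12.2 ± 1.74 CPM at 50 kPa and 13.2 ± 2.17 CPM at 2 kPa (SD, n = 3 each). Mgst2, a further enzyme of leukotriene C4 synthesis, had 24.0, 23.1 and 29.8 CPM at 50 kPa and 20.4, 49.3 and 19.6 CPM at 2 kPa, with 2 kPa replicate 2 the highest, and its log2 fold change of -0.22 ± 0.38 turned to 0.36 without that library. Ptges, the inducible prostaglandin E synthase, had 13.4, 10.6 and 42.0 CPM at 50 kPa and 15.9, 28.9 and 66.5 CPM at 2 kPa, highest in replicate 3 of each group (log2 fold change -0.75 ± 0.70, edgeR adjusted p = 0.501). For Ptges the value was -1.62 without 50 kPa replicate 3 and -0.025 without 2 kPa replicate 3. Ptges2, the membrane-associated prostaglandin E synthase, stood at 0.19 ± 0.11. Gstk1, the kappa class enzyme of mitochondria and peroxisomes, stood at 0.35 ± 0.19, Gstz1, the maleylacetoacetate isomerase of tyrosine breakdown, at 0.12 ± 0.15, and Gstcd at -0.32 ± 0.21 on the log2 scale.

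Among the enzymes that supply glutathione, the synthetase gene Gss rose at 50 kPa. Gss, which joins glycine to gamma-glutamylcysteine in the last step of synthesis, had 33.1, 29.6 and 28.3 CPM at 50 kPa, against 15.6, 15.6 and 13.1 CPM at 2 kPa. The groups lay far apart relative to their spread, and the log2 fold change was 1.04 ± 0.12 (edgeR adjusted p = 0.0286; 3.37e-12 to 0.157 over the other settings). The call was lost with total counts as the scaling, with 50 kPa replicates 1 and 2 summed, without 50 kPa replicate 1 or replicate 2, and without 2 kPa replicate 2 or replicate 3. Over the 15 other settings the log2 fold change of Gss lay between 0.90 and 1.1. Of 14 tested genes of synthesis, cystine uptake and breakdown, Gss was the 1 call, beside 3.45% of all genes. An unadjusted p under 0.05 was found for 5 of them, beside 27.8% of all genes. Of the 14, 5 were above 0 and 9 below, and the median log2 fold change was -0.20. Gclm, the modifier subunit of the rate-limiting ligase, had 197, 183 and 193 CPM at 50 kPa and 133, 161 and 124 CPM at 2 kPa (log2 fold change 0.46 ± 0.12, edgeR adjusted p = 0.0865). The breakdown genes Ggt1, a gamma-glutamyltransferase of the cell surface, and Chac1, a cytosolic gamma-glutamylcyclotransferase, stood at -2.06 ± 0.41 (edgeR adjusted p = 0.0518) and -1.15 ± 0.32 (edgeR adjusted p = 0.0927), both under 4 CPM in every library. DESeq2 called 4 genes of this list, these 3 and Gss, beside 18% of all genes. Gsr, the remaining gene with an unadjusted p under 0.05, stood at -0.67 ± 0.25 (edgeR adjusted p = 0.156).

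The remaining lists gave 0 calls by edgeR, and their other counts stand beside 27.8% of all genes at an unadjusted p under 0.05 and 18% called by DESeq2. Of 11 peroxidases, glutaredoxins and glyoxalases, 1 had an unadjusted p under 0.05, Hagh (0.42 ± 0.15), the glyoxalase that releases glutathione, and the median was -0.0066. The selenoenzymes Gpx1 and Gpx4 stood at -0.094 ± 0.14 and -0.0066 ± 0.11, and DESeq2 called 0 genes of that list. Of 7 exporters, Abcc4 (-0.54 ± 0.17, edgeR adjusted p = 0.112) alone had an unadjusted p under 0.05 and was called by DESeq2, while Abcc1, the main pump of glutathione conjugates, stood at 0.20 ± 0.19. Of 15 genes of the NRF2 axis, the target Srxn1 (0.63 ± 0.16, edgeR adjusted p = 0.0808) and the factor's own gene Nfe2l2 (0.52 ± 0.18, edgeR adjusted p = 0.139) had an unadjusted p under 0.05, the median was 0.0093, and DESeq2 called 1. Nqo1, a widely used NRF2 target, stood at 0.15 ± 0.15. Of 7 genes of the aryl hydrocarbon receptor axis, 5 had an unadjusted p under 0.05, among them Nfe2l2, which is in the NRF2 list too, and DESeq2 called the other 4. These were the receptor gene Ahr (0.67 ± 0.15, edgeR adjusted p = 0.0636), its partner Arnt (0.41 ± 0.092, edgeR adjusted p = 0.0646), the aldehyde dehydrogenase Aldh3a1 (1.93 ± 0.44, edgeR adjusted p = 0.0659), and the target Cyp1b1, which stood at -1.29 ± 0.43 (edgeR adjusted p = 0.124). Aldh3a1 rested on 18 to 45 counts per library at 2 kPa, and the groups overlapped for Cyp1b1. The remaining tested genes of the axis, Ahrr and Tiparp, stood at 0.10 ± 0.15 and 0.18 ± 0.23.

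**Figure D4:**
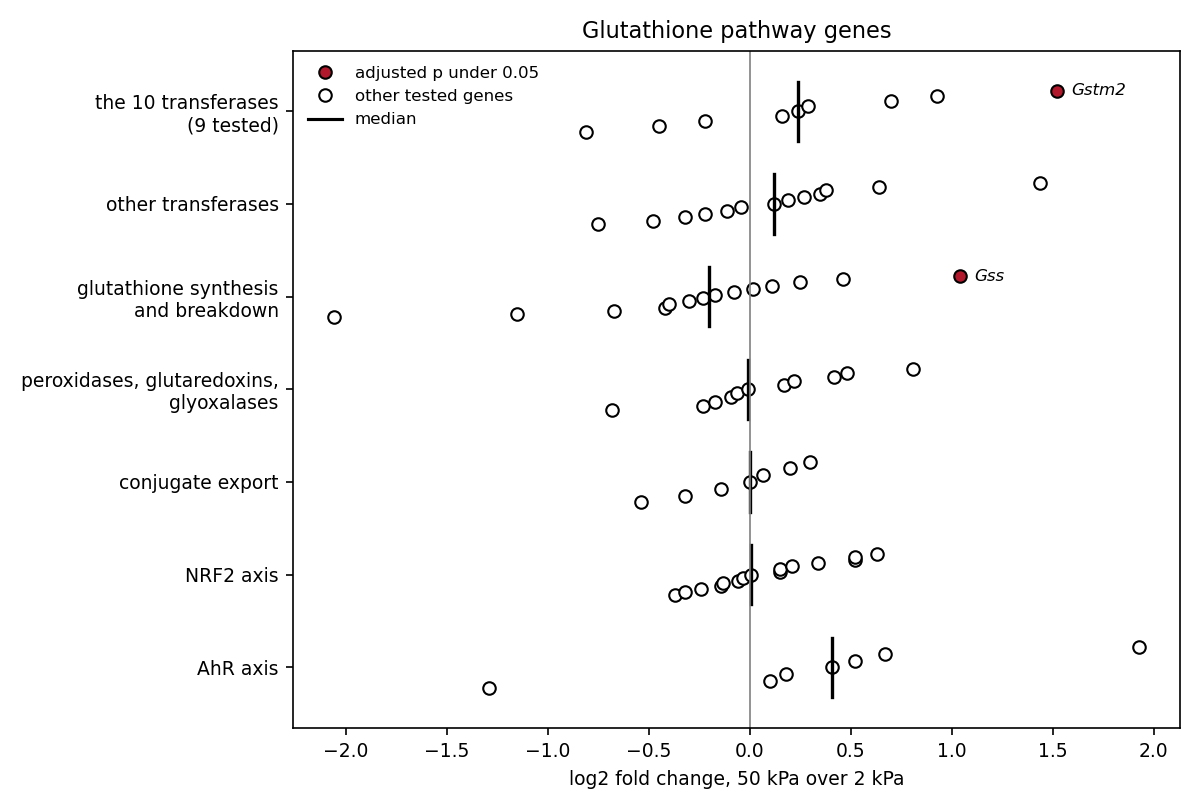
Log2 fold change of 50 kPa over 2 kPa for each tested gene of the transferases and of 5 further glutathione gene lists, with red points for an edgeR adjusted p under 0.05 and a bar for the median of each list. Gss and Gstm2, of which Gstm2 was chosen on this contrast, are the red points, and the medians of the further lists lie between -0.20 and 0.41.

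Likeness to a gene over the 6 libraries was measured by the root mean square difference of log2 CPM after centring each gene. The search covered 9691 tested genes that averaged 5 CPM or more, leaving out predicted genes, clone-named genes, pseudogenes and small RNAs. The genes most like Gstm2 among them were Sil1 (0.122), Hsf4 (0.132), Mmp19 (0.153), Tsku (0.159) and Mturn (0.172). Sil1, an exchange factor of an endoplasmic reticulum chaperone, had 70.8, 66.9 and 51.1 CPM at 50 kPa and 27.2, 19.2 and 26.9 CPM at 2 kPa. The genes most like Gstm1 were Sars (0.0245), Fam58b (0.0249), Ddx28 (0.0309), Nit1 (0.0357) and Zfp40 (0.0372), with log2 fold changes of 0.26 to 0.29. A gene with a small range over the libraries has small differences of this kind from many others, so the values of the Gstm1 and Gstm2 sets are not on 1 footing.

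Markers of several cell types differed between the same libraries. The counts below stand beside 34.1% of all tested genes without overlap (17.2% higher and 16.9% lower). They also stand beside 3.45% called by edgeR, 18% called by DESeq2 and 27.8% at an unadjusted p under 0.05 in edgeR. Of 13 macrophage markers, 9 were higher at 50 kPa without overlap and 0 were lower, 0 were called by edgeR and by limma-voom, 6 were called higher by DESeq2, 8 had an unadjusted p under 0.05 in edgeR, and the sum was 5663 to 6679 CPM at 50 kPa and 2209 to 4350 CPM at 2 kPa. The 12 dendritic cell markers split, with 6 above and 6 below 0 and a median log2 fold change of -0.10. Their sum was 15204 to 23303 CPM at 50 kPa and 6279 to 12393 CPM at 2 kPa, carried by Cd74, H2-Aa, H2-Ab1 and Itgax (log2 fold changes 0.96 to 1.58), while Flt3 (-1.39), Ccr7 (-1.22), Dpp4 (-1.41), Cd24a (-0.74) and Batf3 (-0.46) were lower without overlap. Of 15 neutrophil markers 14 were below 0, 12 without overlap and 6 called lower by edgeR, with a median of -2.69. Their sum was 4014 to 4301 CPM at 50 kPa and 5614 to 9629 CPM at 2 kPa, to which Chil3, the 1 marker above 0, gave 2917 ± 579 CPM at 50 kPa and 1806 ± 114 CPM at 2 kPa (SD, n = 3 each). All 9 B cell markers were lower without overlap and 8 were called lower, and they summed to 25.6 to 109 CPM at 50 kPa and 889 to 1436 CPM at 2 kPa. Of 9 basophil and mast cell markers 7 were lower without overlap (median -2.25), with a sum of 162 to 222 CPM at 50 kPa and 332 to 806 CPM at 2 kPa. All 7 megakaryocyte markers were below 0 (median -3.19), 5 without overlap, and Gp1ba, Gp9, Itga2b and Ppbp were called lower. Their sum, 76.4 to 243 CPM at 50 kPa and 218 to 377 CPM at 2 kPa, held 116 ± 76.6 CPM of Pf4 at 50 kPa and 127 ± 53.4 CPM of Pf4 at 2 kPa (SD, n = 3 each), whose log2 fold change was -0.13. Of 8 monocyte markers 7 were below 0 (median -1.07) and 3 were called lower, with a sum of 1073 to 1711 CPM at 50 kPa and 1488 to 1872 CPM at 2 kPa. F13a1 alone was above 0 (0.86 ± 0.22) and was higher without overlap, while 5 were lower without overlap. DESeq2 called F13a1 higher and 4 of the others lower. Of 9 stromal markers 7 were below 0 (median -1.88), among them Col3a1 (-3.31), Lum (-4.36) and Cxcl12 (-2.25), all at low levels. The stromal sum of 116 to 122 CPM at 50 kPa and 57.6 to 97.0 CPM at 2 kPa was mostly Lepr, which was called higher and averaged 115 ± 4.01 CPM at 50 kPa and 57.1 ± 13.5 CPM at 2 kPa (SD, n = 3 each). Erythroid markers summed to at most 0.218 CPM at 50 kPa and 0.696 CPM at 2 kPa, with 6 of 10 at 0 in every library, and no marker of the other lists was at 0 throughout. The part of these cell types in the levels of Gstm1, Gstm2, Gstm5, Gsto1 and Gss was not tested.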

How the data were processed

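PolyA RNA-seq libraries, 3 at 50 kPa and 3 at 2 kPa, were used, grouped by their titles. Each library has 1 deposited table of raw read counts by gene symbol. The submitters' processing notes name HTSeq 0.6.1p2, TopHat2 2.0.11, FastQC 0.11.2, edgeR 3.8.6 and a further edgeR version, and the builds mm10 and hg19, without their roles. Neither the annotation nor the use of strand is stated.

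The tests used edgeR 4.0.16 under R 4.3.3 (filterByExpr with minimum count 10 and minimum total 15, TMM, glmQLFit, glmQLFTest) on a model of stiffness, with Benjamini-Hochberg adjustment over all 13155 genes tested and a threshold of 0.05. The standard error is the log2 fold change divided by the square root of F. DESeq2 1.42.0 and limma 3.58.1 (voom), other scalings and filters, replicate number as a block, the sum of 50 kPa replicates 1 and 2, and leaving out each library were alternatives. A level of 1 CPM is 32.1 to 41.7 counts. The printed SD and standard errors include the scatter among these libraries. The members, the gene lists and the alternatives were chosen with earlier results of these data known. Beyond the members, every listed transferase with counts was named, and of each pathway list the called genes or up to 3 with the smallest p. In the synthesis list, Gclm, Ggt1, Chac1 and Gsr were named beside the called Gss, outside this rule. These genes, others given for their role (Gpx1, Gpx4, Abcc1, Nqo1, Cyp1b1, Ahrr, Tiparp) and the promoter motifs were chosen after values were seen. Exon lengths, coordinates and 50-base windows shared between transcripts come from GENCODE vM21 on GRCm38, which the named build mm10 corresponds to, and promoters from RefSeq. The procedure was tested on counts simulated for this comparison (50 kPa against 2 kPa, 13155 genes, 200 of them changed). Among changed genes that passed the filter, it recovered 54.1% of 85 2-fold changes and 100% of 109 8-fold changes. Of its 165 calls, 10 were unchanged genes. Each library was drawn independently, so no simulated pair was as alike as 50 kPa replicates 1 and 2, and the rates may not hold for the real libraries.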

Additional observations from a re-analysis of the deposited data

How the results depend on the processing

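Over all genes edgeR called 454 (194 higher and 260 lower at 50 kPa), and 77 higher and 257 lower with total counts as the scaling. The count was 36 with at least 5 CPM required in 3 libraries, 2372 by DESeq2, 0 with 50 kPa replicates 1 and 2 summed (2138 at an unadjusted p under 0.05), and 0 to 511 when 1 library was left out. It was 0 without 50 kPa replicate 1 or replicate 2 (2080 and 2062 at an unadjusted p under 0.05), 1 without 2 kPa replicate 2 and 3 without 2 kPa replicate 3. The counts of listed genes below stand beside 3.45% of all tested genes called by edgeR and 18% called by DESeq2. Of the 9 tested transferases, which were chosen on this contrast, 1 was called, 3 by DESeq2, 0 with the 2 libraries summed, and 0 to 1 when 1 library was left out. Of the other transferases 0 were called, 2 by DESeq2, and 0 to 1 when 1 library was left out. Of 53 tested genes of the 5 pathway lists 1 was called, 2 with RLE scaling, 0 with total counts, 10 by DESeq2, 0 with the 2 libraries summed, and 0 to 2 when 1 library was left out. The causes were not tested.

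No label ties libraries of the same number to 1 animal or day, so libraries were not paired by number. Deviations from the group means correlated over genes with r = 0.54, -0.11 and 0.49 for numbers 1, 2 and 3. Libraries of unlike number were not compared in this way, so these values cannot decide whether pairs exist. With replicate number as a block, edgeR called 776 of all 13155 tested genes, 1 of the 9 transferases, 1 of the other transferases and 3 pathway genes.

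Of 133 log2 fold changes of the 9 transferases over 15 alternatives, 131 kept their sign, the exceptions being Gstp1 with total counts and Gstt2 without 2 kPa replicate 2, and 131 lay within 1 SD of the spread between replicates. Depth limits Gsta4, with 1 to 11 counts per library.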

Other observations

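Several further transferase genes had few counts and did not pass the filter on low counts. Gstm3 had 0, 1 and 0 counts at 50 kPa and 0, 0 and 3 counts at 2 kPa, and Gstm6 had 4, 0 and 0 counts at 50 kPa and 2, 6 and 1 counts at 2 kPa. Gstm7 had 8, 4 and 4 counts at 50 kPa and 12, 4 and 1 counts at 2 kPa. Gsta2 had 0 counts in each 50 kPa library and 0, 5 and 3 counts at 2 kPa. The pi class gene Gstp2 had 6, 6 and 3 counts at 50 kPa and 5, 4 and 4 counts at 2 kPa. The theta class gene Gstt4 had 2, 1 and 5 counts at 50 kPa and 7, 17 and 18 counts at 2 kPa. Of their 50-base windows, 54.3% for Gstp2, 49.8% for Gsta2 and 28.8% for Gstm3 are found in transcripts of other genes. The labels do not state how reads that match several genes were counted. The counts of Gstp2, Gsta2 and Gstm3 therefore limit their levels only through the windows that are not shared. For Gstm6, Gstm7 and Gstt4 the share was 5.97%, 0.532% and 0%. Gsta5, Gsta13 and Gstp3 were not analysed here.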
